A study of Mus musculus with 8 samples.

Results

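The genes described here are 43 genes of the autophagy machinery and its receptors in mouse GAS (gastrocnemius) muscle, measured 12 weeks after knockdown of MYTHO. The members were taken by gene symbol from the list of core autophagy factors and receptors. None was chosen by its level, but the list was chosen with earlier results of these data known. All 43 were found among the 22206 probe sets of the Clariom S Mouse array, on which several short probes read each gene together as 1 probe set. In all, 42 members had 1 probe set and *Atg4a* had 2.

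Male C57/Bl6j mice were injected in the GAS muscle at about 10 weeks of age. The vector was an adeno-associated virus (AAV). Per the methods, the right leg received AAV sh-RNA MYTHO, a short hairpin RNA directed at the transcript of *D230025D16Rik*. The contralateral leg received AAV sh-RNA scramble, so the side of the body and the hairpin cannot be told apart. The tibialis anterior of the right leg was injected as well. Total RNA was taken at 22 weeks of age from 4 muscles of each kind, here called MYTHO-KD and scramble. Both hairpins were driven by a U6 promoter, which is active in most cell types, so the knockdown is not limited by its promoter to muscle fibres. The methods describe the serotype of the AAV as having tropism for skeletal muscle cells. Which cell types the virus reached was not tested here. Every control muscle had also been injected and carried an AAV and a hairpin, and no muscle without virus is part of this comparison.

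Autophagy delivers cytoplasm, organelles and protein aggregates to the lysosome. The ULK1 complex starts the process, a class III PI3-kinase complex containing Beclin 1 makes the lipid PI3P on the forming membrane, and WIPI proteins, ATG2 and ATG9 let that membrane grow. Enzymes related to the ubiquitin system then attach ATG8 proteins (LC3 and GABARAP) to the membrane, cargo receptors bind both cargo and ATG8, and RAB7 and syntaxin 17 take part in fusion with the lysosome. Skeletal muscle depends on this pathway for the turnover of proteins and mitochondria, and MYTHO was studied as a factor in muscle autophagy.

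For each probe set the authors deposited a log2 group average and its standard deviation (SD), both over 4 arrays, so every value below is a group value and no single muscle can be shown. Differences are MYTHO-KD minus scramble, tested with limma's moderated test, with a standard error (SE) and 95% intervals. The adjusted p is that of Benjamini-Hochberg over all probe sets. The averages of all probe sets ran from 3.18 to 19.93, those of the members from 5.84 to 17.65, and every member was flagged as expressed in both groups. The transcript that the hairpin targets averaged 7.71 ± 0.66 in MYTHO-KD and 10.02 ± 0.37 in scramble muscle, a difference of -2.31 (SE 0.304, adjusted p = 0.0138), which left 20.2% of the scramble level.

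Single members of the pathway rose and fell at the mRNA level in MYTHO-KD muscle at an unadjusted p under 0.05, while the median of the list stood close to 0. The largest rise was in *Map1lc3a*, an ATG8 protein, at 2.23-fold, followed by *Atg4d*, a protease that acts on ATG8 proteins, at 1.85-fold. The largest falls were in *Rab7*, the GTPase of late endosomes and lysosomes, and in *Atg4a*, another ATG8 protease, both to 63.7% of scramble. None of the transcripts of the initiation complex and of the Beclin 1 complexes passed the test, nor did that of the receptor p62.

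Of the 43 members, 21 had a difference above 0 and 22 below. The median difference was -0.02, beside -0.01 over all probe sets. At an unadjusted p under 0.05, 5 members were higher (11.6%), beside 6.48% of all probe sets, and 7 were lower (16.3%), beside 5.52%. Here "rose" and "fell" are used of members past this p. Dim probe sets enter these shares for the whole array, and among the 15564 probe sets above the 30th percentile of signal the shares were 8.11% higher and 6.23% lower. With the further demand of a 2-fold change, 1 member was higher (*Map1lc3a*), beside 0.86% of all probe sets, and 0 were lower, beside 0.257%. At an adjusted p under 0.05, 1 member was higher (*Atg4d*), beside 0.18%, and 0 were lower, beside 0.0946%. The median size of a difference, whatever its sign, was 0.23 among the members and 0.18 over all probe sets. Bulk muscle RNA cannot tell fewer cells of a type from less RNA per cell.

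**Figure D1:**
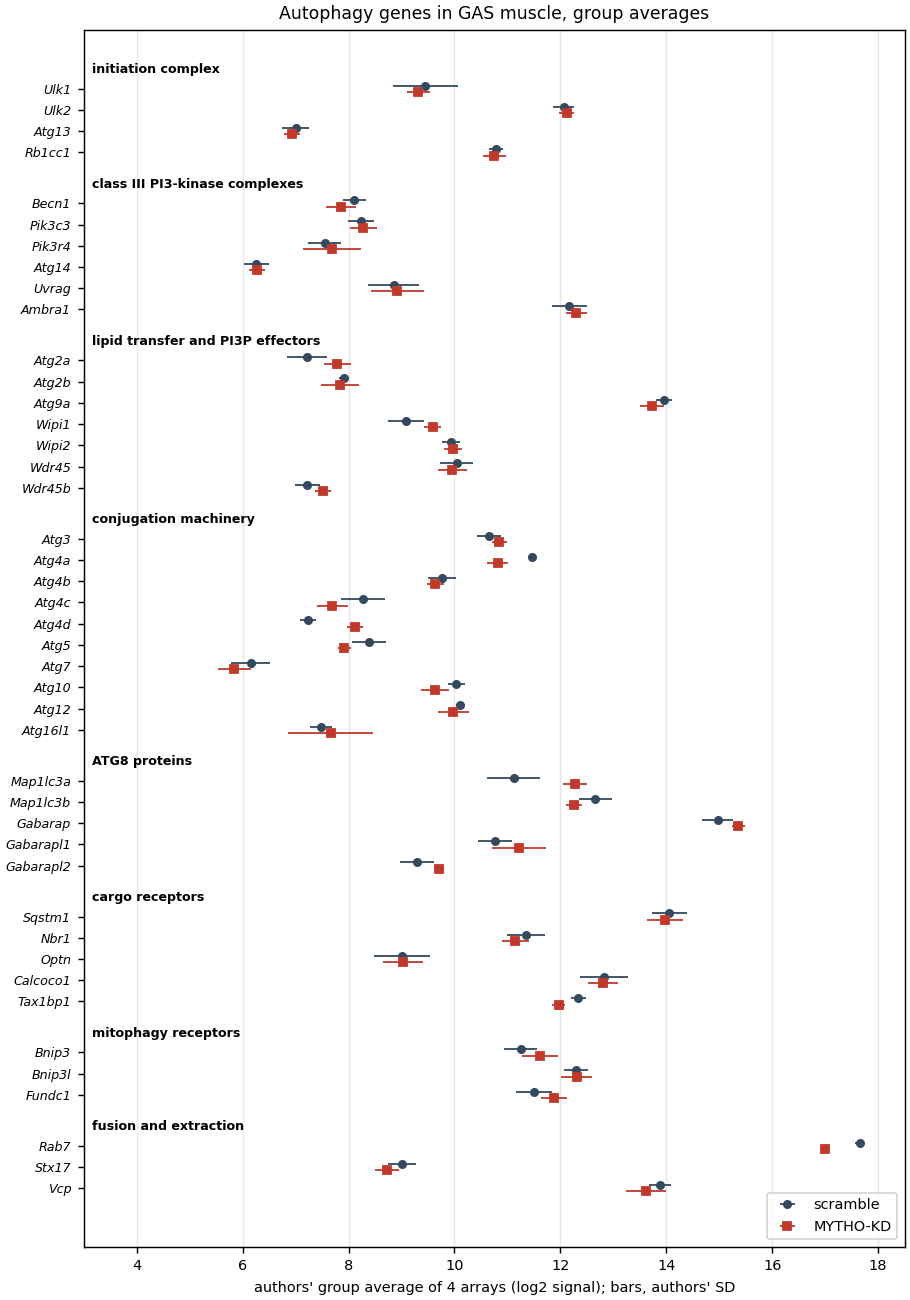
Group averages of the 43 autophagy genes in scramble (circles) and MYTHO-KD (squares) GAS muscle on the log2 scale, with bars of 1 SD over 4 arrays, in groups by role. Bars lie clearly apart for *Atg4d*, *Map1lc3a*, *Atg4a* and *Rab7*, and overlap for most others; positions of different genes on the axis reflect different probes and cannot be ranked against each other.

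**Figure D2:**
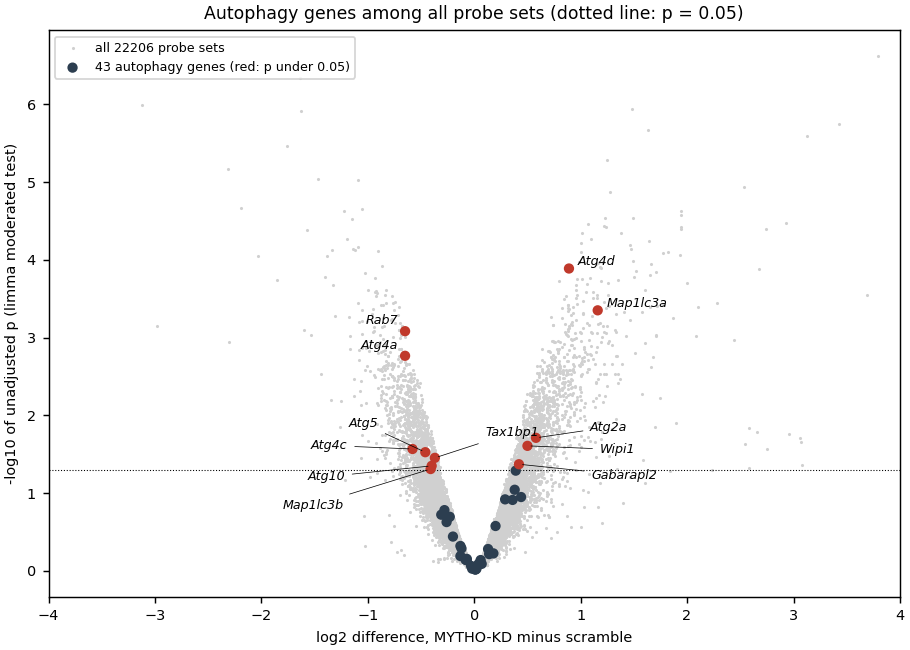
Each point is a probe set, placed by its log2 difference (MYTHO-KD minus scramble) and by -log10 of its unadjusted p from limma's moderated test; the 43 autophagy genes are large points, red where p was under 0.05. The 12 labelled members fall on both sides of 0, 5 higher and 7 lower, and *Atg4d* has the smallest p among them.

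Among the 4 ATG4 proteases, which trim newly made ATG8 proteins and release them from membranes again, 1 rose, 2 fell and 1 did not pass the test. Of all probe sets, 6.48% were higher and 5.52% lower at the same unadjusted p. *Atg4d* averaged 8.12 ± 0.15 in MYTHO-KD and 7.23 ± 0.15 in scramble muscle. Its difference was 0.89 (95% interval 0.54 to 1.24, SE 0.16, adjusted p = 0.0478), and 1.3% of all probe sets were at least as high in difference. *Atg4d* was the 60th of 61 probe sets past the adjusted threshold, and the call was lost with no moderation of the variance (adjusted p = 0.105) and with unequal variances (adjusted p = 0.234). *Atg4a* averaged 10.82 ± 0.20 against 11.47 ± 0.09, a difference of -0.65 (SE 0.161, adjusted p = 0.133). For both genes the average ± 1 SD of one group lay wholly outside that of the other. A second probe set, shared by *Atg4a* and the pseudogene *Atg4a-ps*, gave 9.61 ± 0.27 against 10.16 ± 0.21 and a difference of -0.55 (adjusted p = 0.262), so both probe sets were lower. *Atg4c* averaged 7.69 ± 0.29 against 8.27 ± 0.42, a difference of -0.58 (SE 0.23, adjusted p = 0.342), with bands of 1 SD that overlapped. *Atg4b*, regarded as the main ATG8 protease of most tissues, gave 9.64 against 9.76, a difference of -0.12 with an interval from -0.51 to 0.27.

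*Atg4d* lies at chr9:21265285-21274837 (mm10, as are all gene positions here), *Atg4a* at chrX:140956907-141164270 and *Atg5*, the acceptor of ATG12 in the conjugation system, at chr10:44268358-44364291. The stretches around their starts are given because they stand before the protease that rose, the protease that fell most, and the fallen member whose stretch holds a searched motif. They run from 250 bases before to 50 after the RefSeq start (GRCm38.p6), all on the plus strand, at chr9:21265035-21265334 for *Atg4d*, chrX:140956657-140956956 for *Atg4a* and chr10:44268089-44268388 for *Atg5*. RefSeq holds a second start window for *Atg4a* at chrX:140953595-140953894, which held neither searched motif. The window shown is the one at the start of the gene as the array's table gives it. Capitals mark CACGTG, the core of the E-box and of the CLEAR element bound by TFEB.
Atg4d: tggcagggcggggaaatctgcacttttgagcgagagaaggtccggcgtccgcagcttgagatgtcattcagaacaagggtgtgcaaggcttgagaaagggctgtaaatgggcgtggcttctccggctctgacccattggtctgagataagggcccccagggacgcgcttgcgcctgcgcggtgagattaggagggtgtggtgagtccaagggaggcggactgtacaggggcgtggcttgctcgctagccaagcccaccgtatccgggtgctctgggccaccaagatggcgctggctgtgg
Atg4a: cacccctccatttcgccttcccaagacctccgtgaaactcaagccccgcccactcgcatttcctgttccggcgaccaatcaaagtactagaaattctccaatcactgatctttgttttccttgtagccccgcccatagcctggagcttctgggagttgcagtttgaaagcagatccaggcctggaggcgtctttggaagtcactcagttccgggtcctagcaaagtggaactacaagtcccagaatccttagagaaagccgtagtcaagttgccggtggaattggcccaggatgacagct
Atg5: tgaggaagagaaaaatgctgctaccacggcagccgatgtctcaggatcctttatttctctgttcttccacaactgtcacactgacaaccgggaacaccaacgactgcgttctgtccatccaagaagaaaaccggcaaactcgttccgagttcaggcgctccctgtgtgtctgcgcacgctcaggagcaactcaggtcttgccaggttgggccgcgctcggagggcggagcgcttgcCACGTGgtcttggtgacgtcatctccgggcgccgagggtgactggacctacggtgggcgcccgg

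Such windows were available for 35 of the 43 members, 40 in all, and the remaining members were not searched. CACGTG, which reads the same on both strands, was present in 5 of the 40 windows (12.5%) and in 7.15% of all 32851 available windows. It stood in the windows of *Atg3*, *Atg5*, *Atg7*, *Atg14* and *Bnip3*, of which *Atg5* fell and the others did not pass the test. GTAAACA, a sequence bound by forkhead factors such as FoxO and searched on both strands, was in 0 of the 40 windows and in 3.65% of all. The median GC content was 59.3% in the members' windows and 52.7% in all windows, and a match in letters is not evidence of binding.

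In the rest of the conjugation machinery, 2 further members fell and 4 did not pass the test. *Atg5* averaged 7.92 ± 0.12 in MYTHO-KD and 8.38 ± 0.32 in scramble muscle, a difference of -0.46 (SE 0.186, adjusted p = 0.351). *Atg10*, at chr13:90935349-91223993, is the E2-like enzyme that joins ATG12 to ATG5, and it averaged 9.63 ± 0.26 against 10.03 ± 0.16, a difference of -0.40 (SE 0.178, adjusted p = 0.403). The bands of 1 SD of *Atg5* were apart, whereas those of *Atg10* overlapped. *Atg7*, the E1-like enzyme that activates both ATG12 and ATG8, was also below scramble, 5.84 ± 0.31 against 6.15 ± 0.37, but its difference of -0.31 did not pass (adjusted p = 0.642). *Atg12* gave -0.13, *Atg3*, the E2-like enzyme for ATG8, gave 0.20, and *Atg16l1*, which places the ATG12-ATG5 conjugate on membranes, gave 0.18 with an SD of 0.81 between the MYTHO-KD arrays. Over the 10 members of this machinery, 1 rose (10%) and 4 fell (40%), beside 6.48% and 5.52% of all probe sets. The median difference was -0.22. The falls of *Atg4c* and *Atg5* did not keep an unadjusted p under 0.05 in all 8 settings compared below. That of *Atg10* did, with an unadjusted p of 0.0445 in limma's moderated test.

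Of the transcripts of the 5 ATG8 proteins, which coat the growing membrane and bind receptors, 4 averaged above scramble and 1 below. Over the whole array, 46.9% of probe sets were above scramble. *Map1lc3a*, which encodes LC3A (chr2:155276297-155278073), averaged 12.28 ± 0.23 in MYTHO-KD and 11.12 ± 0.50 in scramble muscle. Its difference of 1.16 (95% interval 0.63 to 1.69, SE 0.241, adjusted p = 0.0771) was the largest of all members, and 0.572% of all probe sets had a difference at least as high. *Map1lc3b*, which encodes LC3B, the form usually followed on immunoblots (chr8:121590361-121598760), averaged 12.25 ± 0.15 against 12.66 ± 0.31, a difference of -0.41 (SE 0.187, adjusted p = 0.414). The interval of *Map1lc3b* ran from -0.82 to -0.00 (unadjusted p = 0.0489, limma's moderated test). It passed in 5 of 8 settings, of which 1 was the reported test and 1 repeated its p. LC3A and LC3B transcripts thus lay on opposite sides of scramble, the first with bands of 1 SD that were apart and the second with bands that overlapped. The 2 were not tested against each other.

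The GABARAP branch, which acts late in closure and fusion of the autophagosome, was above scramble in each of its 3 members, of which 1 passed the test. Over the whole array, 46.9% of probe sets had a difference above 0. *Gabarapl2* (chr8:111940703-111953612) averaged 9.71 ± 0.10 against 9.29 ± 0.32, a difference of 0.42 (SE 0.185, adjusted p = 0.396). With unequal variances it did not pass the unadjusted threshold. *Gabarap* averaged 15.36 ± 0.12 against 14.97 ± 0.29, a difference of 0.39 that just missed the unadjusted threshold (adjusted p = 0.42). *Gabarapl1* averaged 11.21 ± 0.51 against 10.77 ± 0.32, a difference of 0.44 with more spread and an interval from -0.12 to 1.00. The median over the 5 ATG8 genes was 0.42. Of them 2 rose (40%) and 1 fell (20%), beside 6.48% and 5.52% of all probe sets.

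**Figure D3:**
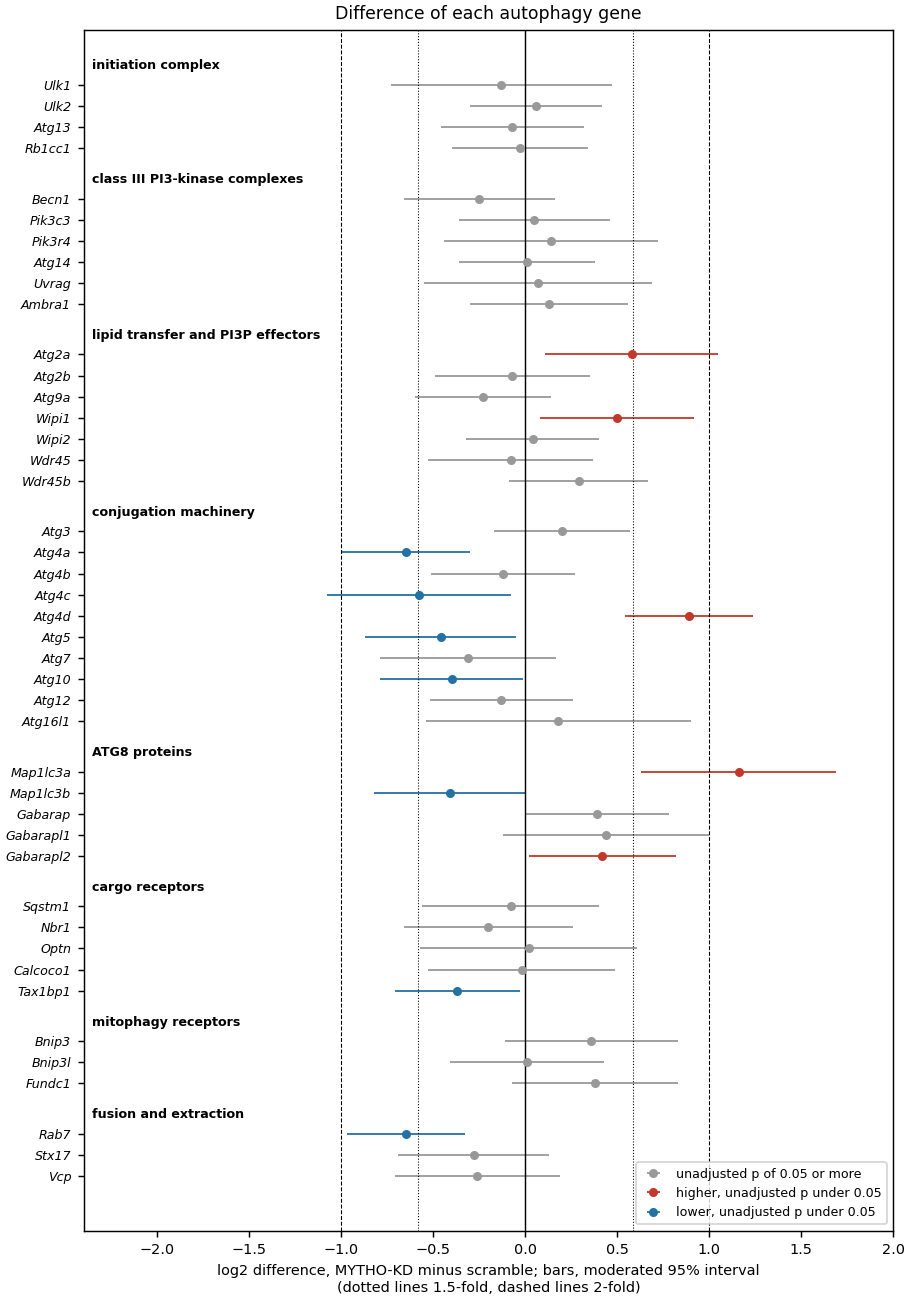
Log2 difference (MYTHO-KD minus scramble) of each autophagy gene with its moderated 95% interval, by role; red marks members higher and blue members lower at an unadjusted p under 0.05, and dotted and dashed lines mark 1.5-fold and 2-fold. The interval of *Map1lc3a* runs from 0.63 to 1.69, and the intervals of the initiation and class III PI3-kinase complexes all cross 0.

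Upstream of conjugation, none of the 4 genes of the initiation complex and none of the 6 of the class III PI3-kinase complexes passed the test. Of all probe sets, 12% passed in either direction. *Ulk1*, the kinase that starts autophagy, gave -0.13 and *Ulk2*, its close relative, 0.06. *Rb1cc1*, which encodes the scaffold FIP200, gave -0.03, and *Atg13*, which links it to the kinase, -0.07. The SD of *Ulk1* was 0.62 between scramble arrays, and its interval from -0.73 to 0.47 was accordingly wide. Among the PI3-kinase genes, *Becn1*, which encodes Beclin 1, had the lowest difference, -0.25 (adjusted p = 0.661). The catalytic subunit gene *Pik3c3* gave 0.05, its partner *Pik3r4* 0.14, the targeting subunits *Atg14* and *Uvrag* 0.01 and 0.07, and the regulator *Ambra1* 0.13.

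Of the 7 lipid transfer and PI3P-binding genes, 2 rose (28.6%) and 0 fell, beside 6.48% and 5.52% of all probe sets. *Atg2a* (chr19:6241668-6262335), which encodes a bridge that carries lipids into the growing membrane, averaged 7.79 ± 0.25 in MYTHO-KD and 7.21 ± 0.38 in scramble muscle, a difference of 0.58 (SE 0.215, adjusted p = 0.314). *Wipi1* (chr11:109573331-109611967), which encodes a PI3P-binding protein, averaged 9.59 ± 0.16 against 9.09 ± 0.34, a difference of 0.50 (SE 0.194, adjusted p = 0.33). Their closest relatives gave other values, with -0.07 for *Atg2b* and 0.04 for *Wipi2*. The other PI3P-binding genes, *Wdr45* and *Wdr45b*, gave -0.08 and 0.29 (adjusted p = 0.931 and adjusted p = 0.558). *Atg9a*, the transmembrane protein that scrambles lipids between membrane leaflets, gave -0.23 (adjusted p = 0.655).

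Of the 5 receptors that bind ubiquitin or other cargo, 1 fell (20%), beside 5.52% of all probe sets. *Tax1bp1* (chr6:52713729-52766780) averaged 11.97 ± 0.12 in MYTHO-KD and 12.34 ± 0.14 in scramble muscle, a difference of -0.37 (SE 0.156, adjusted p = 0.373), with bands of 1 SD that were apart. *Sqstm1*, which encodes p62, the receptor that builds up as a protein when autophagy is blocked, averaged 13.98 ± 0.34 against 14.06 ± 0.33. Its difference of -0.08 had an interval from -0.56 to 0.40, which lay within 1.5-fold in both directions. *Nbr1*, a receptor related to p62, gave 11.15 ± 0.25 against 11.35 ± 0.36, a difference of -0.20. *Optn*, which encodes optineurin, gave 9.03 ± 0.38 against 9.01 ± 0.53, and *Calcoco1*, a receptor for endoplasmic reticulum and Golgi, 12.80 ± 0.28 against 12.82 ± 0.45. Differences of these 3 genes were smaller than the SD of either group.

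The 3 mitophagy receptors, proteins of the outer mitochondrial membrane that bind ATG8 directly, gave averages at or above scramble, and none passed the test. Over the whole array, 46.9% of probe sets were above scramble. *Bnip3* averaged 11.61 ± 0.34 in MYTHO-KD and 11.25 ± 0.31 in scramble muscle (difference 0.36, adjusted p = 0.559), and *Fundc1* 11.88 ± 0.25 against 11.50 ± 0.34 (difference 0.38, adjusted p = 0.499). *Bnip3l*, also called NIX, averaged 12.31 ± 0.29 against 12.30 ± 0.23.

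At the lysosomal end of the pathway, *Rab7* (chr6:87999106-88045270) fell. It averaged 17.00 ± 0.06 in MYTHO-KD and 17.65 ± 0.09 in scramble muscle, a difference of -0.65 (95% interval -0.97 to -0.33, SE 0.146, adjusted p = 0.0991). The bands of 1 SD were apart, and 1.74% of all probe sets had a difference at least as low. *Stx17*, the SNARE protein of the autophagosome, gave 8.73 ± 0.23 against 9.01 ± 0.27, a difference of -0.28 (adjusted p = 0.615). *Vcp*, an ATPase that extracts ubiquitinated proteins, gave 13.62 ± 0.38 against 13.88 ± 0.20, a difference of -0.26 (adjusted p = 0.686). All 3 averages in this group were therefore below scramble, and 1 passed the test. Of all probe sets, 51.4% had a difference below 0 and 5.52% were lower at an unadjusted p under 0.05.

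For the 31 members that did not pass the unadjusted threshold, the intervals bound the size of any change. All 31 intervals lay within 2-fold in both directions, and 15 lay within 1.5-fold. Over all 43 members, 38 intervals lay within 2-fold (88.4%), beside 89.2% of all probe sets. Within 1.5-fold the shares were 34.9% of the members and 38.4% of all probe sets. Shares among the probe sets that did not pass were not computed. Of the 12 members past the threshold, 6 had group averages whose bands of 1 SD were apart, and none of the other 31 did. The bands come from the same averages and SDs as the test, so they give it no separate support. The share of all probe sets with bands apart was not computed. A p above the threshold does not show that a member was equal in both groups.

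A list of 38 further autophagy genes held regulators, tethers and other receptors. Of these, 4 rose (10.5%) and 0 fell, beside 6.48% and 5.52% of all probe sets. In either direction the share was 10.5%, beside 12% of all probe sets. Their median difference was 0.05. *Trp53inp2*, which encodes DOR, a binder of ATG8 proteins known in muscle, averaged 15.91 ± 0.20 against 15.17 ± 0.37, a difference of 0.74 (adjusted p = 0.168). *Bag3*, a co-chaperone of chaperone-assisted autophagy of muscle filaments, averaged 12.92 ± 0.42 against 11.89 ± 0.92, a difference of 1.03 (adjusted p = 0.32). *Phb2*, which encodes an inner mitochondrial membrane receptor, gave 0.47 (adjusted p = 0.268), and *Vamp8*, which encodes a lysosomal SNARE, 0.55 (adjusted p = 0.307). None of these 4 passed the adjusted threshold. The transcription factor genes *Tfeb* and *Tfe3* gave -0.07 and -0.02, and *Bcas3*, which encodes the binding partner of MYTHO on PI3P membranes, gave -0.22 (adjusted p = 0.685).

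Markers of other cell types moved in the same muscles, in lists chosen with earlier results of these data known. Beside the counts below, 46.9% of all probe sets had a difference above 0. Of all probe sets, 6.48% were higher at an unadjusted p under 0.05. Of 20 macrophage markers, all had higher averages in MYTHO-KD and 12 passed an unadjusted p under 0.05, with a median difference of 0.63 and *Cd68* highest at 2.53. Their summed level was 13.37 (log2 of the sum of linear averages) in MYTHO-KD and 12.05 in scramble muscle, a ratio of 2.51. Of 16 fibroblast and matrix markers, all were above scramble and 10 passed, with a median of 0.93 and *Bgn* highest at 1.94. Their ratio of summed levels was 1.32 (17.10 against 16.70). That sum was set largely by *Dcn* (16.86 against 16.58), whose difference was 0.28 and did not pass. Of 11 endothelial markers, all were above scramble and 3 passed, with a median of 0.34, *Kdr* highest at 0.75 and a ratio of 1.36 (14.75 against 14.31). Of 11 markers of regenerating muscle, 6 were above scramble and 4 below, with *Myod1* lowest at -0.40. Only 3 rose (*Mymk* 1.77, *Myh3* 1.27 and *Chrna1* 1.07) and 0 fell. The median of the 11 markers was 0.16. Their summed level was set by *Myh8*, which stood at the top of the scale at 19.93 in both groups. The 14 muscle fibre markers had a median of -0.02, and 3 of them rose (*Mb* 0.93, *Myh1* 0.59 and *Myh2* 0.41). Among these 14 markers, 8 were below scramble, with *Casq1* lowest at -0.27, and 0 fell. Their ratio of summed levels, 1.04, was limited by the top of the scale, where *Acta1*, *Myh4* and *Atp2a1* stood at 19.93 in both groups, and *Myh2* at 19.91 in MYTHO-KD muscle, so changes of these genes can be hidden or understated. Every fibre marker was flagged as expressed in both groups, as the labelled tissue implies. Among the markers of other cells, *Timp1* was not flagged as expressed in scramble and *Chrng* was not in MYTHO-KD muscle, and all the others were flagged in both groups. The part that the other cell types had in the differences of the autophagy genes was not tested.

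**Figure D4:**
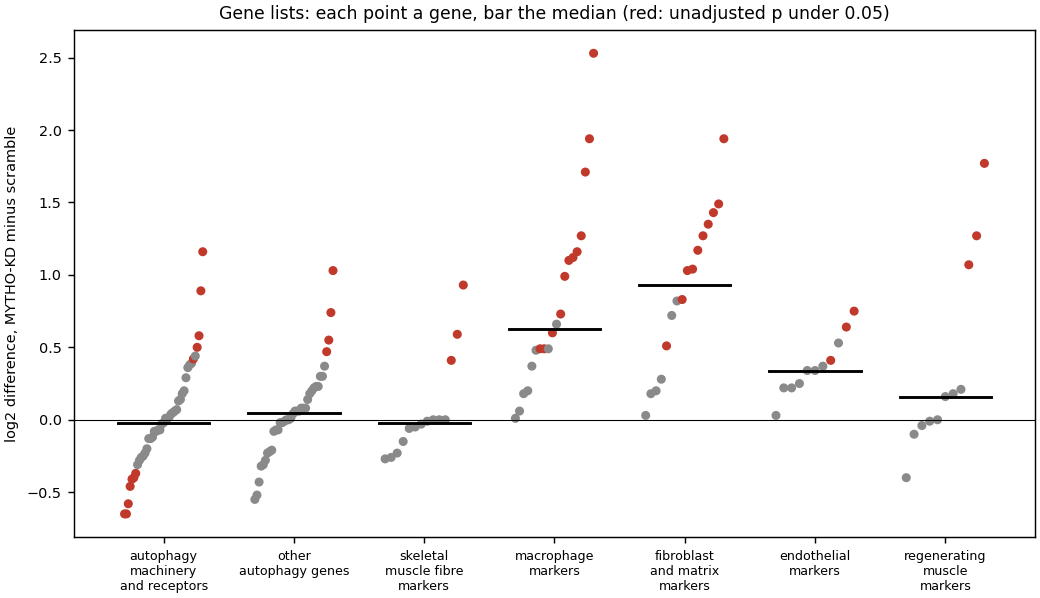
Log2 difference (MYTHO-KD minus scramble) of each gene in the autophagy list and in the context lists, with a black bar at each list's median and red points at an unadjusted p under 0.05. The autophagy genes are spread on both sides of 0 around a median of -0.02, while all macrophage, fibroblast and endothelial markers lie above 0.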

How the data were processed

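Clariom S Mouse arrays were run on GAS muscle RNA, 4 MYTHO-KD and 4 scramble. Per the study's methods, the authors analysed them in the Transcriptome Analysis Console 4.0.1 with default parameters, and the submitters' processing notes name Affymetrix Expression Console, RMA and mm10. The deposited table holds, for each probe set, the authors' average (log2), SD and expression flag per group, and 0 columns of single arrays. The authors' fold changes, p-values and false discovery rates were not used. Variances of the groups were averaged (residual degrees of freedom 6) and moderated by the squeezeVar function of limma 3.58.1 in R 4.3.3 (prior SD 0.284, prior degrees of freedom 5.85). Tests were two-sided, with Benjamini-Hochberg adjustment over 22206 probe sets, and were tested on simulated data. They assume plain means, although the kind of average is not stated. They also treat the muscles as independent, although per the methods both legs of a mouse were injected. The simulated arrays were independent too. The effect of robust averages was not tested. For a gene with several probe sets the brightest was used. Every member may be named. The rule also names the hairpin's target, further autophagy genes past p 0.05 and the extremes of each marker list. All other genes were named after their values were seen. Members and lists were chosen with earlier results of these data known. Arrays have no sequencing depth, and 4 per group limit the precision.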

Additional observations from a re-analysis of the deposited data

How the results depend on the processing

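The settings bear on the tests and hardly on the differences, which only centring (by 0.01) and the choice of the *Atg4a* probe set could move. They were followed singly for 21 of the 43 members. With no moderation 0 members passed the adjusted threshold, with unequal variances 0, with a mean-dependent robust prior 3, and with an adjusted p under 0.10 also 3, against 1 as reported. At an unadjusted p under 0.05, 3 members were higher and 4 lower with unequal variances, 6 and 5 with no moderation, 6 and 6 with centring and 6 and 7 with the robust prior, against 5 and 7, so the balance of higher and lower members was not stable. *Gabarap* passed in the last 3 of these settings. At 1.5-fold in place of 2-fold, 4 members were past the fold and the unadjusted p, against 1. *Atg2a*, *Atg4a*, *Atg4d*, *Atg10*, *Map1lc3a*, *Rab7* and *Tax1bp1* kept an unadjusted p under 0.05 in all 8 settings with a p, and *Wipi1*, *Atg4c*, *Atg5*, *Gabarapl2* and *Map1lc3b* did not. These 8 include the test as reported. They also include the second probe set of *Atg4a*, which repeats the reported p for every other member and could not change their calls. The adjusted p ran from 0.0359 to 0.234 for *Atg4d*, from 0.03 to 0.452 for *Map1lc3a* and from 0.0123 to 0.175 for *Rab7*. The second probe set of *Atg4a*, a setting chosen after seeing the data, changed no call. Leaving out single arrays was not run, since the table holds group averages. No paired analysis was possible because the values of the legs of one mouse were deposited here as group averages. Saturated or very dim signal may mask a change, and at the typical SD the interval of a difference was 0.438 wide on each side (log2).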

Other observations

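The spread between arrays of one group was larger in scramble than in MYTHO-KD muscle for 25 of the 43 autophagy genes (58.1%, beside 49.5% of all probe sets), larger in MYTHO-KD for 15 and equal for 3. The median SD of the members was 0.23 in MYTHO-KD and 0.27 in scramble muscle, and 0.27 in both groups over all probe sets. No test of this difference was made.

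Among the further autophagy genes, the largest differences below 0 were those of *Trp53inp1*, -0.55 (adjusted p = 0.494), and *Mitf*, -0.52 (adjusted p = 0.44), in limma's moderated test, and neither passed the unadjusted threshold.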
